A study of Mus musculus with 6 samples.

Results

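The receptor genes through which hematopoietic growth factors and inflammatory cytokines act on myeloid progenitors, 10 in all, were followed in bone marrow LSKs of irradiated mice with and without Tespa1. The genes were chosen by name: the macrophage colony-stimulating factor receptor Csf1r, the granulocyte colony-stimulating factor receptor Csf3r, the GM-CSF and IL-3 receptor chains Csf2ra, Il3ra, Csf2rb and Csf2rb2, the IL-6 receptor chains Il6ra and Il6st, the IL-1 receptor Il1r1 and the interferon-gamma receptor chain Ifngr1. All 10 were found among the 55487 genes of the deposited table, and all 10 passed the filter on low counts that left 15332 genes for testing. LSKs are lineage-negative cells that carry Sca-1 and c-Kit, a bone marrow fraction that holds hematopoietic stem cells together with early progenitors. RNA was sequenced from 3 Tespa1+/+ and 3 Tespa1-/- libraries, with the wild-type mice described as littermates. The Tespa1-/- mice carried the germline allele of the line B6.129S-Tespa1tm1Smoc backcrossed to C57BL/6, so that the allele was not limited to blood cells. Mice of both genotypes were males of 8 to 10 weeks that had received 5 Gy of total body irradiation, and LSKs were taken on day 13, so no unirradiated group enters the comparison. Whether a library came from 1 mouse or from a pool was not stated, and the p-values below measure the spread between these libraries, which may be partly technical.

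Receptors of this kind work in chains. A ligand-binding chain such as Csf2ra or Il3ra pairs with a shared signalling chain, Csf2rb, which cannot bind its ligand firmly alone, and mice carry a near-identical copy of that chain, Csf2rb2, which serves IL-3 only. Il6ra likewise binds IL-6 and recruits Il6st, the gp130 chain shared by the whole IL-6 family, whereas Csf1r is a receptor tyrosine kinase and Csf3r a homodimer. In the stem and progenitor compartment these receptors mark and drive the passage to granulocytes and monocytes, and IL-1 and interferon-gamma act there as signals of inflammation.

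Csf1r, Il1r1 and Il6st fell in Tespa1-/- LSKs, and no receptor rose past the same threshold. Csf1r was 1.57-fold lower, Il1r1 1.90-fold and Il6st 2.0-fold, whereas the signalling chain of the GM-CSF and IL-3 receptors, Csf2rb, stood 1.45-fold higher, just short of the fold required. A gene was called at a Benjamini-Hochberg adjusted p under 0.05 in edgeR's quasi-likelihood test across all 15332 genes together with a fold over 1.5. Il1r1 alone of the 3 genes that fell was still called after a correction for gene length, and then only just past the fold. By the same rule without that correction 3 of the 10 receptors were lower, against 19.2% of all genes tested, and 0 of the 10 were higher, against 14.0%. At any fold, 5 receptors were past the adjusted p and lower, against 31.8% of all genes, and 2 were past it and higher, against 31.5%. In 8 of the 10 receptors the CPM of the groups did not overlap, against 69.1% of all genes. These shares are those of a comparison in which much of the transcriptome moved, and the median log2 fold change of the 10 receptors was -0.05 beside 0.00 for all genes.

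Library totals ranged from 12856630 to 30576981 counts. Tespa1 itself was at 34.5, 32.7 and 36.0 CPM in the Tespa1+/+ and at 15.3, 14.3 and 14.2 in the knockout libraries, or -1.23 in log2 fold change (SE 0.07, adjusted p = 7.0e-06). Reads from Tespa1 remained in the knockout libraries, at a lower level in 3 of 3. Kit, the gene of the sorted antigen c-Kit, was expressed in all libraries and fell by 0.97 on the log2 scale, a call that the length correction described below ended with a value of -0.48, short of the fold. Ly6a, the gene of Sca-1, was at 50.5 ± 11.6 and 40.4 ± 3.36 CPM (mean ± SD, n = 3). Of the lineage antigens, Cd3e had 8, 7 and 4 counts in Tespa1+/+ and 0 in every Tespa1-/- library. Ly6g went the other way, with 0 in every Tespa1+/+ library and 7, 8 and 4 in Tespa1-/- libraries, and both were too low for a test. Itgam, which encodes CD11b, a target of the stated lineage antibodies, was at 30.3 ± 1.18 and 20.7 ± 9.14 CPM. The pan-leukocyte antigen gene Ptprc was at 214.2 ± 7.02 and 171.1 ± 34.4 CPM. The sum of these 4 genes was 236.6 to 250.6 CPM in Tespa1+/+ and 159.2 to 215.0 CPM in Tespa1-/- libraries. Most of it came from Ptprc, a gene not limited to lineage-positive cells, so the sum is no measure of such cells. Ptprc itself turned from -0.32 (adjusted p = 0.072) to 0.46 (adjusted p = 0.022) under the length correction described below. Granulocyte-monocyte progenitor genes moved with the genotype, with 7 of 8 higher and a summed level of 13539 to 14241 CPM in Tespa1+/+ and 21963 to 22842 CPM in Tespa1-/- libraries. All 10 neutrophil genes were higher, the sum going from between 21.8 and 24.1 to between 488 and 516 CPM, with none at 0 in all libraries. Most of the Tespa1+/+ sum was Lcn2, at 15.8 ± 0.70 CPM, while S100a9 was at 0.91 ± 0.26 CPM there. Genes this low in Tespa1+/+ may have passed the filter through the Tespa1-/- libraries alone, and their folds rest on few counts. Stem cell genes went the other way, 7 of 9 being lower, and their sum was 96.9 to 107.3 CPM in Tespa1+/+ and 42.9 to 44.9 CPM in Tespa1-/- libraries. Of all genes tested, 14.0% were called higher and 19.2% lower. In bulk RNA, fewer cells of a type and less RNA per cell cannot be told apart, and the part of these shifts in the receptor values was not tested.

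**Figure D1:**
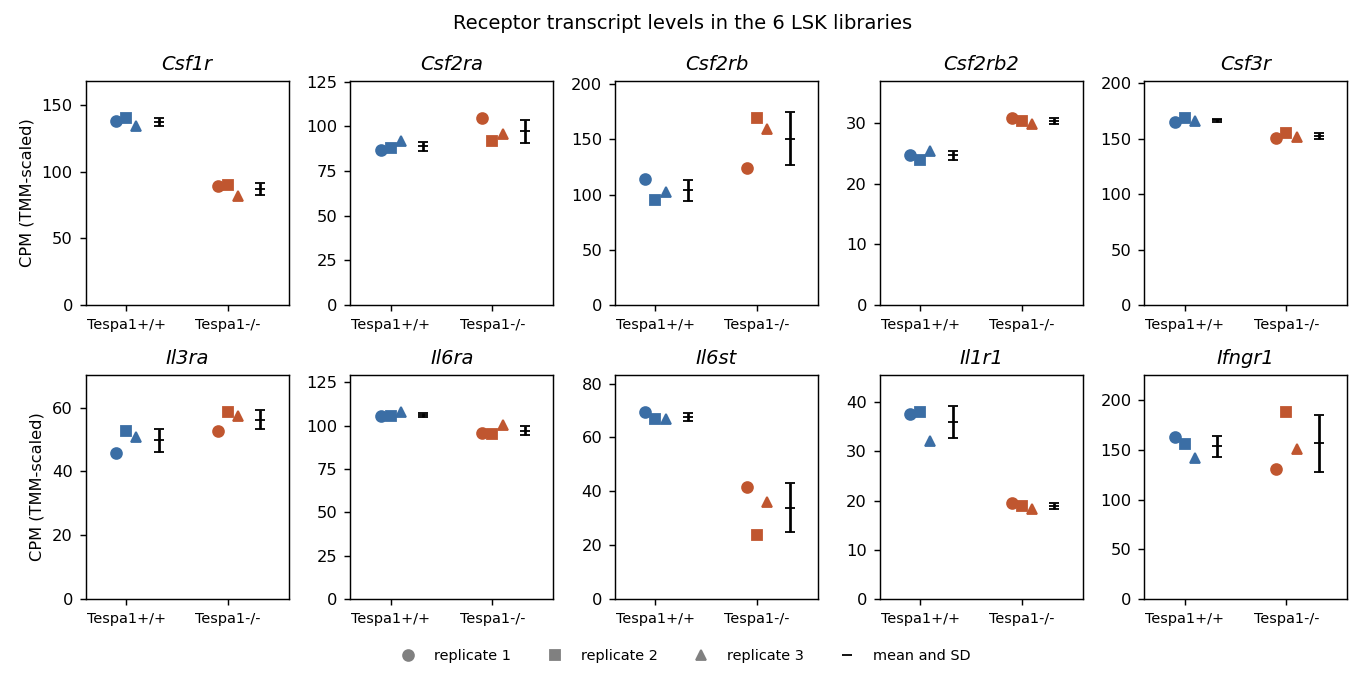
Levels of the 10 receptors in each library, in CPM scaled by TMM on axes that start at 0 and differ between panels; symbols give the replicate number and bars the group mean and SD (n = 3). The Tespa1-/- points of Csf1r, Il1r1 and Il6st lie well below those of Tespa1+/+, while the Tespa1-/- points of Csf2rb, Il6st and Ifngr1 are spread widely.

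Csf1r, the kinase through which macrophage colony-stimulating factor and IL-34 act on the monocyte lineage, fell. The gene (ENSMUSG00000024621) lies on the plus strand of chromosome 18 at 61100598 to 61132149 in GRCm38. It stood at 137.6, 139.8 and 134.2 CPM in Tespa1+/+ and at 89.6, 90.1 and 81.9 CPM in Tespa1-/- libraries. Every Tespa1-/- library was below every Tespa1+/+ library by far more than the libraries of a group differed among themselves. The log2 fold change was -0.65 (SE 0.05, adjusted p = 2.3e-05). The fold of 1.57 lay close to the required 1.5: the length correction described below left -0.37 (SE 0.05, adjusted p = 0.00049), which ends the call, and glmTreat, which tests for a fold above 1.5, gave an adjusted p of 0.13. Csf1r shares 873 exonic bases with Hmgxb3 on the opposite strand, and since the strand setting of the counting was not given in the sources used here, reads of that stretch could not be assigned with certainty. Hmgxb3 had a log2 fold change of -0.36 (SE 0.05).

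Csf3r, which carries the granulocyte colony-stimulating factor signal in neutrophil production, differed little. It lies on chromosome 4 at 126024550 to 126044440 on the plus strand (ENSMUSG00000028859) and was read at 165.4, 168.3 and 165.7 CPM in Tespa1+/+ and at 150.5, 155.4 and 151.5 CPM in Tespa1-/- libraries. The groups did not overlap, and the replicates were so close that a log2 fold change of only -0.13 (SE 0.03) passed with an adjusted p of 0.0082. Under the length correction described below it was -0.05 with an adjusted p of 0.18. The median log2 fold change of the 10 neutrophil genes was 6.16, but from a low base. Their summed level in Tespa1+/+ was 21.8 to 24.1 CPM, so the size of that value is not comparable with that of Csf3r.

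The 4 chains of the GM-CSF and IL-3 receptors were all higher on average in Tespa1-/- LSKs, by 1.10-fold for Csf2ra, 1.13-fold for Il3ra, 1.23-fold for Csf2rb2 and 1.45-fold for Csf2rb. Of the ligand-binding chains, Csf2ra, which confers binding of GM-CSF (ENSMUSG00000059326, chromosome 19 at 61223957 to 61228429, minus strand), stood at 86.8, 87.7 and 91.80 CPM in Tespa1+/+ and at 104.4, 91.75 and 95.8 CPM in Tespa1-/- libraries. The lowest Tespa1-/- library just overlapped with the highest of the controls, and a log2 fold change of 0.13 (SE 0.06) missed the threshold at an adjusted p of 0.070. Il3ra, the IL-3-binding chain (ENSMUSG00000068758, chromosome 14 at 14346275 to 14356011, plus strand), was at 45.8, 52.7 and 50.7 CPM in Tespa1+/+ and at 52.8, 58.5 and 57.4 CPM in Tespa1-/- libraries. The groups were narrowly separate, with a log2 fold change of 0.18 (SE 0.07, adjusted p = 0.057). Neither chain reached the fold of 1.5 in any fit with a library left out, but both came past the adjusted p without single libraries: without Tespa1-/- replicate 2, Csf2ra was at 0.18 (adjusted p = 0.028), and Il3ra was at 0.23 both without Tespa1+/+ replicate 2 (adjusted p = 0.040) and without Tespa1-/- replicate 1 (adjusted p = 0.035). The antisense gene Gm48860, which overlaps Il3ra by 46 exonic bases, had at most 2 counts in a library.

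The signalling chains lie beside each other on chromosome 15, Csf2rb (ENSMUSG00000071713) at 78325752 to 78353847 on the plus strand and Csf2rb2 (ENSMUSG00000071714) at 78282507 to 78305721 on the minus strand. Their coding sequences, of 2688 and 2634 bases, were identical at 2503 of 2628 aligned bases (95.2%), with a longest identical run of 242 bases. Of all 100-base windows of the Csf2rb coding sequence, 11.0% occurred in Csf2rb2 as well, so that part of the reads of these genes cannot be assigned to either by sequence. Among stretches of 60 coding bases aligned without a gap, the one in which the copies differ the most is shown, with the 13 differing bases in capitals. Parts of the coding sequences that align to a gap were left out of that search. It covers chr15:78338893-78338952 (GRCm38, plus strand, exon 5) in Csf2rb and chr15:78294379-78294438 (minus strand, exon 4) in Csf2rb2, both written 5′ to 3′ along the transcript as GENCODE M21 gives it.
Csf2rb: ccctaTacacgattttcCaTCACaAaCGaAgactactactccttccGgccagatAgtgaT
Csf2rb2: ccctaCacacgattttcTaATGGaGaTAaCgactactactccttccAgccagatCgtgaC

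Csf2rb stood at 114.0, 95.3 and 102.4 CPM in Tespa1+/+ and at 123.8, 169.0 and 159.6 CPM in Tespa1-/- libraries. All Tespa1-/- libraries were above all controls, but Tespa1-/- replicate 1 was much nearer to the controls than the others were. The log2 fold change of 0.54 (SE 0.12, adjusted p = 0.0063) passed the test without reaching the fold of 1.5. Leaving out that library raised it to 0.67 and leaving out Tespa1+/+ replicate 1 to 0.61, and both values were called. Csf2rb2 stood at 24.8, 23.9 and 25.4 CPM in Tespa1+/+ and at 30.8, 30.3 and 29.9 CPM in Tespa1-/- libraries. Its groups were tight and separate, with a log2 fold change of 0.30 (SE 0.05, adjusted p = 0.0024). With the counts of both copies summed into 1 gene, which sets aside how shared reads were divided, the level went from 128.6 ± 9.81 to 181.2 ± 23.5 CPM, a log2 fold change of 0.49 (SE 0.10, adjusted p = 0.0039). The sum cannot restore shared reads that were dropped or correct any counted for both copies, and the counting settings were not given.

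In the IL-6 receptor the chains parted. The ligand-binding Il6ra (ENSMUSG00000027947, chromosome 3 at 89864059 to 89913196, minus strand) stood at 105.7, 105.8 and 107.8 CPM in Tespa1+/+ and at 95.6, 95.5 and 100.2 CPM in Tespa1-/- libraries. Its groups were close but separate, and the log2 fold change was -0.13 (SE 0.04, adjusted p = 0.015). Without Tespa1+/+ replicate 3, Tespa1-/- replicate 1 or Tespa1-/- replicate 2 the adjusted p rose to 0.071, 0.061 and 0.056. The direction turned under the length correction, to 0.35 with an adjusted p of 0.00021. The antisense gene Gm42809, which overlaps Il6ra by 242 exonic bases, had at most 15 counts in a library.

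Il6st, the gp130 chain on which IL-6, IL-11, LIF and oncostatin M all signal (ENSMUSG00000021756, chromosome 13 at 112464070 to 112510086, plus strand), stood at 69.4, 66.7 and 66.9 CPM in Tespa1+/+ and at 41.7, 23.8 and 36 CPM in Tespa1-/- libraries. The controls were nearly equal, whereas the Tespa1-/- libraries were all lower and differed widely, replicate 2 being the lowest. The log2 fold change was -0.997 (SE 0.18, adjusted p = 0.0021). Without Tespa1-/- replicate 2 it was -0.79 and the call held with an adjusted p of 0.00028. The length correction left -0.41 with an adjusted p of 0.084, which ends the call.

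Il1r1, the signalling receptor of IL-1 (ENSMUSG00000026072, chromosome 1 at 40225080 to 40317257, plus strand), stood at 37.5, 37.9 and 32.2 CPM in Tespa1+/+ and at 19.5, 18.8 and 18.3 CPM in Tespa1-/- libraries. The groups were far apart. The log2 fold change was -0.93 (SE 0.08, adjusted p = 5.5e-05), and Il1r1 was the only receptor of the 10 that kept both its direction and its side of the adjusted p threshold in all 17 alternative fits. Under the length correction it was -0.60 with an adjusted p of 0.00063.

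Ifngr1, the ligand-binding chain for interferon-gamma (ENSMUSG00000020009, chromosome 10 at 19591949 to 19610229, plus strand), stood at 162.5, 156.3 and 141.9 CPM in Tespa1+/+ and at 131.2, 188.0 and 151.0 CPM in Tespa1-/- libraries. The Tespa1-/- libraries lay on both sides of the controls. The log2 fold change was 0.03 (SE 0.13, adjusted p = 0.86). Its sign turned in 5 alternative fits, in none of which it passed the threshold.

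The spread of Csf2rb and Ifngr1 between libraries was far above counting error in both groups, and that of Il6st in the Tespa1-/- libraries; the cause was not tested. A chi-square per degree of freedom between the libraries of a group is near 1 when they differ by counting error alone, and over the 10 receptors its median was 1.22 for Tespa1+/+ and 2.97 for Tespa1-/- libraries. For Csf2rb it was 20.3 and 61.5, for Ifngr1 11.9 and 83.7, and for Il6st 0.73 and 37.2. Such genes were found outside the receptors too, since among 9477 genes with a mean count over 200 the median was 2.02 and 1.64 and the 90th percentile 14.6 and 13.3. Among the Tespa1-/- libraries, replicate 2 held the highest Csf2rb and Ifngr1 and the lowest Il6st, and replicate 1 the lowest Csf2rb and Ifngr1 and the highest Il6st.

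**Figure D2:**
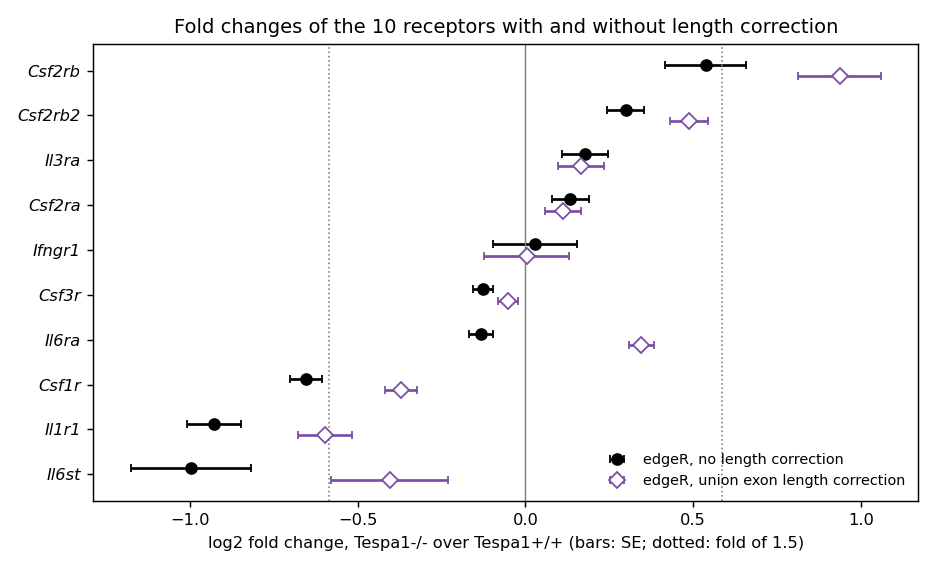
Log2 fold change of each receptor, Tespa1-/- over Tespa1+/+, with SE bars, from edgeR without (filled circles) and with (open diamonds) a correction for union exon length; dotted lines mark a fold of 1.5. Il6ra moves from -0.13 to 0.35 and Il6st from -0.997 to -0.41, while Csf2ra, Il3ra and Ifngr1 hardly move.

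Fold changes in this comparison went with gene length, which bears on the receptors since their union exon lengths, the bases covered by any annotated exon, run from 2847 for Ifngr1 to 11099 for Il6st. Over 10100 genes the rank correlation (Spearman) of the log2 fold change with length was -0.62, given as a description since all genes share the same 6 libraries. Of the genes in the longest decile, that of Il6st, 46.4% were called lower and 0.914% higher, with a median log2 fold change of -0.56. In the length decile of Csf1r and Il1r1 the median was -0.23, and both stood below it, at -0.65 and -0.93. In that of Csf2rb and Il6ra the median was -0.35, and both stood above it, at 0.54 and -0.13.

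**Figure D3:**
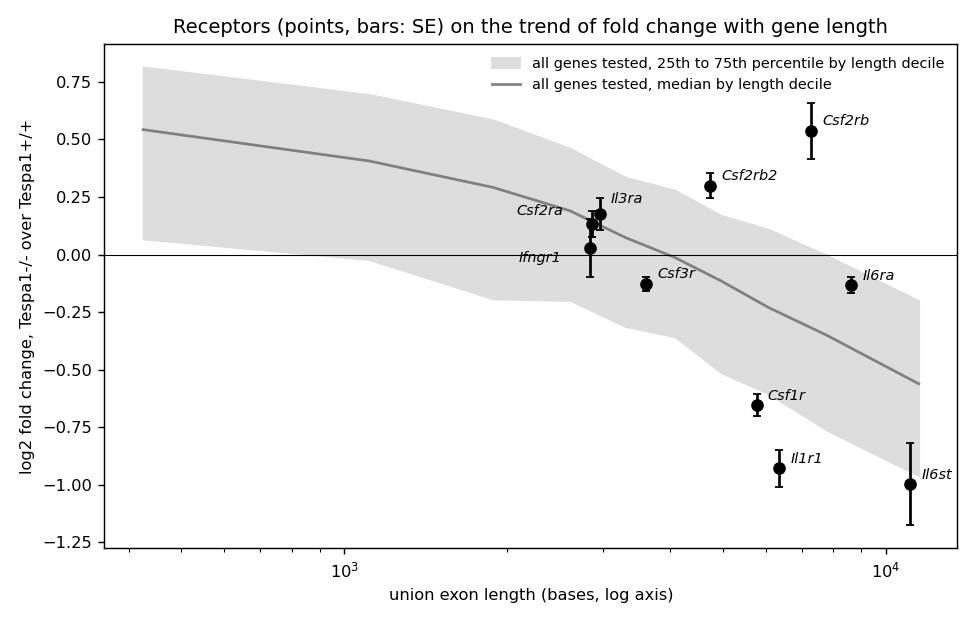
Log2 fold change (with SE) against union exon length in bases on a log axis for the 10 receptors, over the median (line) and the 25th to 75th percentile (band) of all genes tested in each length decile. Csf2rb and Csf2rb2 lie above the band, Csf1r and Il1r1 below it, and Il6st lies near its lower edge.

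A correction that removes the trend within each library, and shifts the median of all genes to 0.11, left 1 receptor called lower, Il1r1, against 13.4% of all genes, and 1 called higher, Csf2rb, against 11.7%. Csf2rb then stood at 0.94 (SE 0.12, adjusted p = 0.00055) and Csf2rb2 at 0.49 (SE 0.06, adjusted p = 0.00027). Csf1r stayed past the adjusted p without the fold. Scaling by library totals alone moved the median of all genes to -0.10 and the calls among all genes from 2148 higher and 2951 lower to 1491 higher and 3516 lower, and it left the same 3 receptors lower. The part of RNA length in these differences was not tested beyond the correction.

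Levels of different receptors can be compared only per length, on the deposited FPKM scale. In Tespa1+/+ LSKs Ifngr1 was the most abundant at 38.5 ± 2.68 FPKM, ahead of Csf3r at 31.2 ± 0.26, Csf1r at 18.4 ± 0.38, Csf2ra at 14.9 ± 0.44, Il3ra at 11.4 ± 0.79, Il6ra at 10.0 ± 0.11, Csf2rb at 9.69 ± 0.89, Il6st at 3.99 ± 0.09, Il1r1 at 3.78 ± 0.34 and Csf2rb2 at 3.38 ± 0.10. The libraries of Il6ra and Csf2rb overlapped, as did those of Il6st and Il1r1 and those of Il1r1 and Csf2rb2, so the order within those pairs is not resolved. In Tespa1-/- LSKs Ifngr1 at 36.7 ± 6.80 and Csf3r at 26.6 ± 0.49 FPKM again led. Csf1r went from the third place to the sixth, at 10.9 ± 0.57 FPKM, behind Csf2ra at 15.2 ± 0.99, Csf2rb at 13.1 ± 2.09 and Il3ra at 12 ± 0.67, and Csf2rb overlapped with both of its neighbours. Il6st at 1.86 ± 0.50 and Il1r1 at 1.85 ± 0.06 FPKM came last, overlapping each other, and below Csf2rb2 at 3.88 ± 0.05. The order depends on the length used: with counts divided by union exon length, Csf2ra stood above Csf1r, and Csf2rb above Il6ra, in Tespa1+/+ LSKs. FPKM summed to 350333 to 351987 per Tespa1+/+ library and to 432222 to 433536 per Tespa1-/- library, so that an FPKM of a given size was a smaller share of the sum in the latter.

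Ratios between the chains of a receptor within a library do not depend on the scaling between libraries, though they are not corrected for length, and 6 such ratios of FPKM were compared by an exact two-sided permutation test over the 6 libraries, whose smallest possible p is 0.1 with 3 against 3. The ratio of Il6ra to Il6st was 2.44, 2.54 and 2.58 in the controls and 3.66, 6.41 and 4.46 in the knockout libraries. The groups did not overlap, the mean on the log2 scale being 0.90 higher (exact permutation p = 0.1, adjusted over the 6 ratios 0.30), and without Tespa1-/- replicate 2 it was 0.68 higher. The ratio of Il1r1 to Il1rap, its accessory chain, was 2.76, 2.96 and 2.54 in the controls and 1.59, 1.75 and 1.63 in the knockout libraries. These groups did not overlap either, with a log2 difference of -0.73 (exact permutation p = 0.1, adjusted 0.30). Il1rap itself had a log2 fold change of -0.19 (SE 0.08, adjusted p = 0.065).

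The ratios within the GM-CSF and IL-3 receptors overlapped between the groups. That of Csf2ra to Csf2rb was 1.37, 1.65 and 1.61 in the controls and 1.52, 0.975 and 1.08 in the knockout libraries, a log2 difference of -0.40 (exact permutation p = 0.2, adjusted 0.30). The ratio of Il3ra to the sum of Csf2rb and Csf2rb2 went from 0.879 ± 0.12 to 0.713 ± 0.05 (log2 difference -0.30, exact permutation p = 0.2, adjusted 0.30) and that of Csf2rb2 to Csf2rb from 0.350 ± 0.03 to 0.301 ± 0.06 (log2 difference -0.23, exact permutation p = 0.3, adjusted 0.36). In all 3 ratios Tespa1-/- replicate 1 was the library nearest to the controls. Ifngr1 to Ifngr2, the signalling chain of the interferon-gamma receptor, went from 6.52 ± 0.56 to 6.76 ± 1.46 (log2 difference 0.03, exact permutation p = 1).

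**Figure D4:**
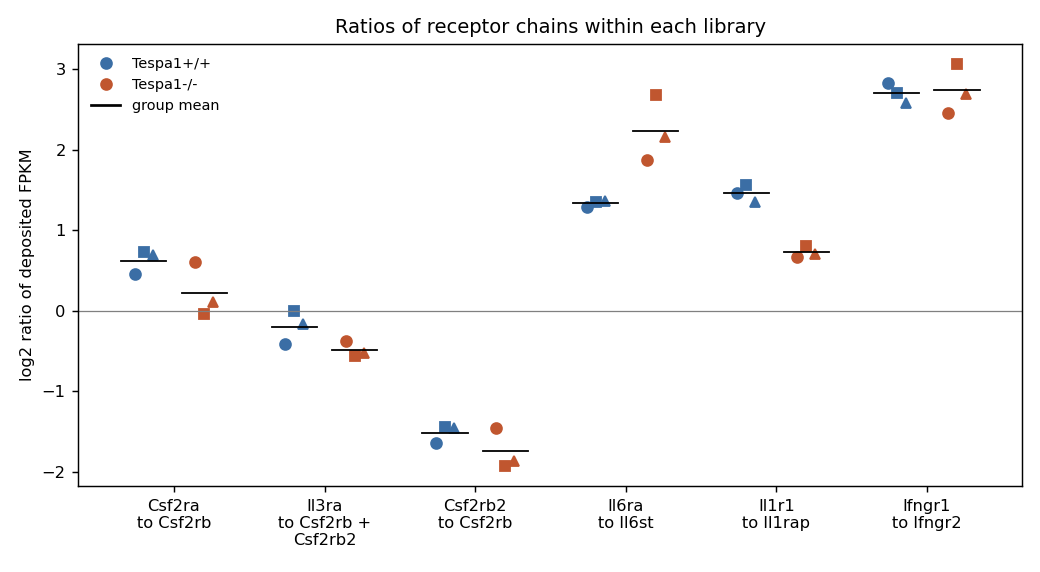
Log2 ratio of the deposited FPKM of 2 receptor chains in each library; circles, squares and triangles are replicates 1, 2 and 3, and lines the group means. The groups separate for Il6ra to Il6st and for Il1r1 to Il1rap and overlap for the other 4 ratios.

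Few of the ligands of these receptors were read in the LSKs themselves, with 4 of 13 ligand genes past the filter. Osm, which encodes oncostatin M, was the most abundant at 111.3 ± 3.44 and 115.2 ± 6.68 CPM. Csf1, the ligand of Csf1r, fell from 15.6 ± 1.04 to 11.5 ± 2.09 CPM (-0.44, adjusted p = 0.027) without reaching the fold of 1.5. It missed the adjusted p under the length correction (-0.19, adjusted p = 0.27) and without Tespa1+/+ replicate 2 or 3 (adjusted p = 0.089 and 0.057). Il3 and Il34 had 0 counts in all 6 libraries, where 0 allows for up to 3 counts in a library, and Csf2, Csf3, Il5 and Il1a had at most 3. Ifng had 13, 8 and 2 counts in Tespa1+/+ and 0, 0 and 4 counts in Tespa1-/- libraries, and Il6 had 6, 10 and 6 against 2, 0 and 4, too few for a test. Lif, a ligand of the gp130 family, was the only one called, falling from 20.6 ± 1.11 to 4.34 ± 0.75 CPM with a log2 fold change of -2.25 (SE 0.13, adjusted p = 7.9e-06).

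Of 9 partner chains, decoys and antagonists, 6 passed the filter. The decoy Il1r2, which binds IL-1 without signalling, rose by 0.72 on the log2 scale (adjusted p = 0.018). It rested on 44, 64 and 28 counts in Tespa1+/+ and on 63, 38 and 52 in Tespa1-/- libraries. With 1 library left out its adjusted p reached up to 0.057, and under the length correction it was at 0.58, short of the fold. Il27ra, which pairs with gp130 to bind IL-27, fell by 0.96 (adjusted p = 0.00026). Il5ra, the remaining ligand-binding chain for Csf2rb, had 43 counts in all in Tespa1+/+ and 12 in Tespa1-/- libraries, and Osmr 9 and 0.

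Beyond the 10 receptors, 26 of 28 other cytokine receptors were tested, and 12 were lower and 1, Il13ra1, higher, against 19.2% and 14.0% of all genes. Their median log2 fold change was -0.48, beside -0.05 for the 10 receptors and 0.00 for all genes, and -0.31 under the length correction, which left 7 lower and 2 higher. Kit, on this list, is on the sort list as well. The rise of Il13ra1 rests on few reads, its wild-type libraries holding only 9, 26 and 18 counts. The knockout libraries held 38, 30 and 32, and the gene may have passed the filter through them alone. Tgfbr2, a chain of the TGF-beta receptor, was at -1.03 (SE 0.06) and, under the length correction, at -0.57, short of the fold.

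Below the receptors, all 22 kinases and adaptors were tested, and 2 were called higher and 4 lower, no larger a share than the 14.0% and 19.2% of all genes. Myd88, the adaptor of the IL-1 receptor, rose by 1.06 (SE 0.07), while Jak2, the kinase bound to Csf2rb, fell by 0.78 (SE 0.08). The ubiquitin ligase Cbl fell by 1.05 (SE 0.20) and Stat5b by 0.60 (SE 0.04). Under the length correction 2 of the list were called higher and 0 lower, with Cbl at -0.41 (adjusted p = 0.11), Jak2 at -0.56 (adjusted p = 0.00061) and Stat5b at -0.34 (adjusted p = 0.00023), and the list median went from -0.28 to 0.06. Of 8 feedback inhibitors 3 fell and 0 rose, against 19.2% and 14.0% of all genes. The 3 that fell were Socs2 at -1.99 (SE 0.12), Cish at -1.32 (SE 0.09) and Socs5 at -0.84 (SE 0.10), and Socs2 and Cish are textbook targets of STAT5. Socs5 did not reach the fold under the length correction.

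Of 18 interferon-gamma targets, 6 were called lower and 0 higher, against 19.2% and 14.0% of all genes, with a median of -0.41 and of -0.37 under the length correction. At any fold, 13 were past the adjusted p and lower, against 31.8% of all genes. Past it and higher was 1, Psmb8 at 0.49 (SE 0.07), against 31.5%. Among the 6, Irf8 at -0.86 (SE 0.30) overlapped between the groups and was at -0.48 with an adjusted p of 0.21 under the length correction. Iigp1, an immunity-related GTPase, was at -2.02 (SE 0.25) and Gbp6, a guanylate-binding protein, at -1.64 (SE 0.30), while Ifngr1 and Ifngr2 were at 0.03 and -0.02. Of 9 myeloid transcription factors, Spi1, which encodes PU.1 and activates Csf1r and other receptor genes, rose by 0.67 (SE 0.04) and Cebpe, a factor of granule gene expression, by 1.47 (SE 0.05). Klf4, a factor of the monocyte lineage, fell by 1.14 (SE 0.06) and Irf4 by 1.18 (SE 0.14). The monocyte and macrophage genes, of which 10 of 14 passed the filter, were divided: 2 were higher, beside 14.0% of all genes, and 2 lower, beside 19.2%. Their summed level was 952 to 989 CPM in Tespa1+/+ and 1107 to 1177 CPM in Tespa1-/- libraries, with Marco at 0 throughout and C1qa, C1qb and C1qc at 8 counts or fewer in each.

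The remaining marker lists were those of other cells. The lineage antibodies named in the study's methods were directed at T cell, B cell, myeloid and erythroid surface antigens, so that mature cells of those kinds are ones that the sort is meant to remove. Of eosinophil, basophil and mast cell genes, 2 of 7 tested rose and 1 fell, and of erythroid genes 4 of 6 rose and 1 fell. Of megakaryocyte genes 2 of 5 fell, of B and plasma cell genes 1 of 8 rose and 5 fell, and of T cell and dendritic genes 2 of 2 and 2 of 4 fell. Beside these stand 14.0% of all genes called higher and 19.2% called lower, and lists this short were not tested against those shares. Of the lineage antigens, 2 of 4 were tested and neither was called, and of the sort antigens Kit alone was called, and not under the length correction.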

How the data were processed

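LSKs (3 Tespa1+/+ and 3 Tespa1-/- libraries) were profiled by stranded, poly-A selected, paired-end RNA-seq. The authors deposited a raw count and an FPKM value for each gene and library, and the submitters' processing notes name CASAVA 1.8, HISAT2, StringTie, edgeR and GRCm38 without saying what each did; counting settings and strand use were not given in the sources used here. The deposited FPKM values are the counts scaled by library total and by a fixed gene length. Gene positions, equal to those in the table for all 10 receptors, union exon lengths and coding sequences were taken from GENCODE M21. Counts were tested in edgeR 4.0.16 (R 4.3.3) with filterByExpr, TMM, glmQLFit and glmQLFTest, and CPM values are TMM-scaled. P-values were adjusted by Benjamini-Hochberg over 15332 genes, and genes were called at adjusted p under 0.05 with a fold over 1.5. The length correction was a loess offset (span 0.5) on union exon length. Alternatives were DESeq2 1.42.0 and limma 3.58.1 on log2(FPKM + 1) and log2(FPKM + 0.1), which understate the changes of low genes, and those in the closing section. The fits were checked on simulated counts. The members and gene lists were chosen with earlier results of these data known. Named genes were the 10 receptors, their partner chains, Tespa1, up to 4 called genes per pathway list with a mean count of at least 100 and the 2 most abundant genes per marker list; Il1r2, Il13ra1, Stat5b, Socs5, Irf4, Irf8, Psmb8, Csf1, Osm, Hmgxb3 and genes adjacent to receptors were added after their values were seen. Some genes that this rule names are not reported here.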

Additional observations from a re-analysis of the deposited data

How the results depend on the processing

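The 3 receptors called lower kept that count under RLE factors, library totals, no filter, a filter of 10 counts in every library, DESeq2, both limma fits, the unadjusted p and the replicate block; glmTreat against a fold of 1.5 left 2, without Csf1r. Under both length corrections (union exon length, and the length implied by FPKM) 1 receptor was lower and 1 higher. Leaving out 1 library gave 3 lower in each case and 0 to 1 higher, the 1 being Csf2rb without Tespa1+/+ replicate 1 or Tespa1-/- replicate 1. Among all genes, glmTreat called 1020 higher and 1807 lower, limma on log2(FPKM + 1) 1070 and 1626, and limma on log2(FPKM + 0.1) 1365 and 2278.

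Under the length corrections on union exon length and on the length implied by FPKM, signs turned for Il6ra (0.35 and 0.22), Il1rap (0.41 and 0.31), Ifngr2 (0.076 and 0.11), Ptprc (0.46 and 0.44) and Hmgxb3 (0.23 and 0.19), and on union exon length alone for F13a1 (0.15), Slc26a2 (0.043) and H2-Aa (0.067). Ifngr1 turned to -0.072 with library totals, to -0.082 and -0.084 in the limma fits, and to between -0.12 and 0.15 when 1 library was left out; Ifngr2 then ranged from -0.036 to 0.014 and H2-Aa from -0.074 to 0.029. Csf3r and Il6ra missed the threshold with no filter (adjusted p = 0.065 and 0.069). Of 1096 values of 65 named genes, 1002 kept direction and side of the threshold, 53 lost it, 19 gained it and 22 turned.

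The log2 difference of Ifngr1 to Ifngr2 ranged from -0.13 to 0.17 without 1 library. That of Il6ra to Il6st ranged from 0.68 to 1.09, and that of Il1r1 to Il1rap from -0.79 to -0.68.

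The deviations of same-numbered libraries from their group means had correlations of 0.05, 0.01 and 0.06 over the genes tested. Such values, in which counting error takes part, cannot decide whether the numbers mark pairs, and the labels do not say. With the replicate block 2101 genes were higher and 2871 lower, and 3 receptors lower; Il3ra passed at 0.18 (adjusted p = 0.020). In this balanced design a block cannot change the mean difference of a ratio.

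With these depths 9 ligand genes had too few counts for a test; the effect of depth on the receptor tests was not examined. With 3 libraries a group the smallest p of the ratios is 0.1.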

Other observations

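The nearest protein-coding genes that do not overlap the 3 receptors called lower were read on each side, as was a neighbour of Csf2rb2, after their values were seen. Beside Il6st on chromosome 13, Il31ra, a receptor chain of the IL-6 family, went from 12.9 ± 1.75 to 4.30 ± 0.75 CPM, a log2 fold change of -1.56 (SE 0.16), and Ankrd55 on the other side did not pass the filter. Beside Csf1r on chromosome 18, Pdgfrb, a platelet-derived growth factor receptor, went from 28.7 ± 0.55 to 14.6 ± 0.52 CPM (-0.97, SE 0.06), and Slc26a2, a sulfate transporter that lies beyond the overlapping Hmgxb3, was at -0.60 (SE 0.09) and at 0.043 under the length correction. Beside Il1r1 on chromosome 1 the neighbours differed in sign, the IL-36 receptor Il1rl2 being at -0.53 (SE 0.08; -0.17 with an adjusted p of 0.13 under the length correction) and the decoy Il1r2 at 0.72 (SE 0.21). The counts of Il1r2 were few, and its adjusted p reached up to 0.057 with 1 library left out. Ncf4, a subunit of the phagocyte NADPH oxidase next to Csf2rb2 on chromosome 15, went from 58.9 ± 0.89 to 92.4 ± 1.09 CPM (0.65, SE 0.04), and was at 0.52 under the length correction, short of the fold.

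The most abundant genes of the marker lists moved as follows in log2 fold change. Mpo was at 0.48 and Calr at 0.64, Lcn2 at 3.03 and S100a9 at 7.07, Ly6c2 at 0.88 and F13a1 at -0.21, Prg2 at 3.73 and Mcpt8 at 0.58, Hba-a1 at 2.11 and Hbb-bt at 0.56. S100a9 and Prg2 started from only 0.91 and 1.85 CPM in Tespa1+/+ libraries. Hlf was at -1.21 and Mllt3 at -0.75, Vwf at -2.32 and Itga2b at -0.28, Jchain at 1.18 and Cd79b at 0.27, Lck at -0.87 and Cd8a at -0.96, Cd74 at -0.14 and H2-Aa at -0.03, and Ptprc at -0.32 and Itgam at -0.57, of which Cd74, H2-Aa, Ptprc and Itgam were not past the adjusted p. Under the length correction Mllt3 at -0.13, Hbb-bt at 0.16, Itga2b at -0.02 and Cd79b at 0.06 were not past it (adjusted p = 0.32, 0.099, 0.74 and 0.45). Cd74 at -0.31 and Ptprc, turned to 0.46, then came past it (adjusted p = 0.049 and 0.022), and F13a1 turned to 0.15 (adjusted p = 0.0013). Jchain and Cd79b went against most of the B and plasma cell list, with a median of -0.83. Of that list 5 of 8 genes were called lower and 1 higher, against 19.2% and 14.0% of all genes.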
